A study of Mus musculus with 2 samples.

Results

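In situ Hi-C joins and sequences pairs of DNA fragments that touch inside fixed nuclei, here cut with DpnII, and it had been run on mature olfactory sensory neurons that express the odorant receptor gene Olfr16 (MOR23). Adult MOR23-GFP mice, mixed in sex and of a strain that is not specified, gave the olfactory epithelium from which the neurons were sorted. No treatment is recorded, and the sort rests on the reporter at that 1 receptor gene. There were 2 biological replicates, of 28000 and 24400 cells, in 1 group with no control group. The deposited values are 1 list of 5 kb boundaries on GRCm38 from the matrix that joins both replicates, each graded Weak or Strong and scored. The list holds no value per replicate, no read depth and no expression.

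The boundaries described here are the 436 autosomal boundaries with a score of 1.8 or more, of 7035 autosomal boundaries (6.20%) and of 7435 in the whole list. They were selected on the score itself, so their scores are a description and support nothing. All 436 were of class Strong, which begins at a score of 0.5, and they made up 11.7% of the 3733 autosomal Strong boundaries. Their scores ran to 4.38 with quartiles of 1.94, 2.11 and 2.37, while the median was 0.499 over the other 6599 autosomal boundaries and 0.881 over the other 3297 Strong ones. Between 1.8 and 2 lay 153 of them, between 2 and 2.5 lay 206, between 2.5 and 3 lay 60, and 17 reached 3. The threshold fell inside a continuous run of scores: the lowest inside were 1.804 at chr19:8695001-8700000, 1.804 at chr7:28725001-28730000 and 1.803 at chr6:31030001-31035000, and the highest outside were 1.799 at chr8:74965001-74970000, 1.798 at chr6:120360001-120365000 and 1.796 at chr16:94760001-94765000.

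Chromosomes fold into stretches that contact themselves more than their neighbours, and a boundary is the place between such stretches. In many mammalian cells the protein CTCF, bound to its motif in a preferred orientation, stalls the cohesin complex that extrudes DNA loops, and boundaries are also known near active gene starts. In olfactory sensory neurons, one odorant receptor gene is chosen from a large family that lies in clusters on many chromosomes, and silent receptor clusters are packed in heterochromatin. The Olfr16 gene itself was not at one of these boundaries: its nearest boundary, 9.59 kb away, had a score of 0.846, and the nearest with a score of 1.8 or more lay 1415 kb away.

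The sequences that bear on these boundaries are the matches to the CTCF core consensus, searched as exact matches of its 12 letters on both strands. The 6 highest-scored boundaries that held a match inside their 5 kb are shown with the match in capitals, read 5′ to 3′ on the strand of the match and named by the nearest coding starts on either side. Their scores were 3.02, 2.88, 2.70, 2.59, 2.48 and 2.40 in the order printed. In that order the stretches lay at chr6:89680360-89680401 (plus strand), chr8:117475126-117475167 (minus strand), chr7:144585814-144585855 (plus strand), chr2:135328983-135329024 (minus strand), chr2:166082363-166082404 (minus strand) and chr9:79723271-79723312 (minus strand).
Txnrd3/Vmn1r40 boundary: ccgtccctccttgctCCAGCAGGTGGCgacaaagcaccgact
Cmip/Plcg2 boundary: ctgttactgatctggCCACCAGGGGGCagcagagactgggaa
Fadd/Ano1 boundary: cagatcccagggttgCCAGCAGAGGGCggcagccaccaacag
Plcb1/Plcb4 boundary: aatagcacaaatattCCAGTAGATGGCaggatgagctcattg
Ncoa3/Sulf2 boundary: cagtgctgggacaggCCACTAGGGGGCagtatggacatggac
Col12a1/Cox7a2 boundary: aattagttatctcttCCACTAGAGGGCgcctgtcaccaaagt
The first, the second and the sixth boundary overlapped no annotated gene. The others overlapped exons of Ano1, which encodes a calcium-activated chloride channel, of Plcb1, which encodes a phospholipase C, and of Sulf2, which encodes an extracellular sulfatase. The second match lay in annotated repeat sequence. A match is a description of letters and not a site at which binding was measured.

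The highest-scored boundaries with a coding start inside were at Trrap (chr5:144765001-144770000, score 3.197), at Eif1 (chr11:100315001-100320000, score 3.13) and at Atp6ap1l (chr13:90905001-90910000, score 3.04). RefSeq promoters of GRCm38.p6, 250 bases before to 50 after the start, are shown for the first and the second, with CpG dinucleotides in capitals. No promoter entry was at hand for Atp6ap1l. The Trrap promoter is chr5:144768544-144768843 on the plus strand and the Eif1 promoter is chr11:100319699-100319998 on the plus strand.
Trrap promoter: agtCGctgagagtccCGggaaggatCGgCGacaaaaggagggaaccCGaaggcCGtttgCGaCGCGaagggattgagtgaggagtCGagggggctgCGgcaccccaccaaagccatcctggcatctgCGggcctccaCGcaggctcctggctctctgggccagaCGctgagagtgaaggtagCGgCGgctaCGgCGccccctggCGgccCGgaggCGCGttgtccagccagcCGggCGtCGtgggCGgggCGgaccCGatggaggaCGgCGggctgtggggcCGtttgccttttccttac
Eif1 promoter: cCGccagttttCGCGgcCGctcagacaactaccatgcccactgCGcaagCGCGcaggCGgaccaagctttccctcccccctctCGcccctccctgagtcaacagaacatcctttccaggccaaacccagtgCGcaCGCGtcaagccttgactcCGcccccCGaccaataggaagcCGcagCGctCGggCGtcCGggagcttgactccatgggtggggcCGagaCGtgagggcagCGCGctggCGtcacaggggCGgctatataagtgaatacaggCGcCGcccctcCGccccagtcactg
Trrap encodes an adaptor of histone acetyltransferase complexes, and its promoter held 31 CpG, more than 85.4% of 20085 coding promoters. Eif1 encodes a factor for start codon selection in translation, and its promoter held 28 CpG, more than 80.4% of them. After Atp6ap1l, the next gene by score that starts inside a boundary was Rxylt1 (2.95). Its promoter, not shown, held 15 CpG, more than 51.9% of the 20085. Over the 152 RefSeq promoters near a boundary scored 1.8 or more, the median was 16.5 CpG (95% interval 15 to 18), against 18 (17 to 18) near the other boundaries and 13 (12 to 13) away from any boundary.

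The 15 highest-scored boundaries lay on 11 autosomes, and 9 of them overlapped a coding gene while 6 did not. The highest of all, 4.38 at chr1:88305001-88310000, lay in the gene of the cold and menthol channel Trpm8 and overlapped an exon. To its left were 13 coding starts in 250 kb, 9 of them of the Ugt1a glucuronosyltransferase cluster (named after its values were seen), and to its right were 2, the nearer that of the secreted phosphoprotein gene Spp2 at 97.0 kb. Most coding starts around it thus lay on its left.

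The second, 3.91 at chr11:3195001-3200000, lay in an intron of the GTPase gene Drg1 between the divergent starts of Sfi1, a centrosome gene, 1.54 kb to the left, and of Eif4enif1, which encodes a binding partner of a translation initiation factor, 2.39 kb to the right. It was the first boundary of its chromosome and had an assembly gap within 100 kb. The third, 3.33 at chr2:37350001-37355000, overlapped an exon of Pdcl, which encodes a phosducin-like chaperone of G proteins, with the Pdcl start 4.33 kb to its right and the odorant receptor gene Olfr368 at 23.5 kb to its left. An odorant receptor gene was thus nearest on 1 side only.

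Several of the 15 faced a long stretch without coding starts on 1 side. At chr12:64900001-64905000 (3.23) the sperm gene Fscb started 425 kb to the left and Gm527 started 12.9 kb to the right, with 0 coding starts in the left 250 kb and 6 in the right. At chr10:57440001-57445000 (3.09) the start of Gja1, the gene of the gap junction protein connexin 43, lay 1063 kb to the left and that of the heat shock factor gene Hsf2 lay 41.4 kb to the right. At chr9:13220001-13225000 (3.19) the adhesion gene Cntn5 started 2315 kb to the left and Jrkl 20.8 kb to the right. That boundary too had an assembly gap within 100 kb.

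The only one of the 15 with no coding start within 250 kb on either side was chr7:92090001-92095000 (3.23), which lay in an intron of Dlg2, the gene of a synaptic scaffold protein, 1613 kb past its start and 466 kb before that of Ccdc90b. At chr12:110405001-110410000 (3.25) the boundary lay in no gene between Dio3, an imprinted gene for the deiodinase that inactivates thyroid hormone, 126 kb to the left, and Ppp2r5c, which encodes a regulatory subunit of protein phosphatase 2A, 37.1 kb to the right. At chr3:76065001-76070000 (3.201) the Golgi gene Golim4 started 108 kb to the left and the follistatin-like gene Fstl5 started 4.27 kb to the right. Like all of the 15, these 3 had no CTCF consensus match inside.

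At the Trrap boundary the start of Tmem130 lay 3.18 kb to the left and pointed the other way. At the Eif1 boundary the keratin gene Krt42 lay 45.1 kb to the left, with 11 coding starts in the left 250 kb and 10 in the right. Atp6ap1l resembles the gene of a proton pump accessory subunit, and at its boundary the ribosomal protein gene Rps23 started 12.96 kb to the right. At chr1:171530001-171535000 (3.14) the boundary overlapped the gene of the lectin intelectin-1, Itln1, whose start lay 0.294 kb to the right, and the mRNA export gene Alyref2 lay 26.5 kb to the left. All 4 thus stood within 5 kb of a coding start.

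The remaining pair lay in repeated sequence. At chr8:19700001-19705000 (3.17), between the defensin gene Defb7 at 205 kb and 4930467E23Rik at 24.6 kb, 39.0% of words of 50 bases in the interval and 50 kb either side occurred once in the genome. At chr5:14930001-14935000 (3.07), in an exon of Speer4e and 15.1 kb from the start of Gm9758, 42.4% did. The median over the boundaries scored 1.8 or more was 92.9%, against 93.6% over the other autosomal boundaries. Of the 15, 1 had a CTCF consensus match within 10 kb and none had one inside, which for 15 boundaries is a small count.

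**Figure D1:**
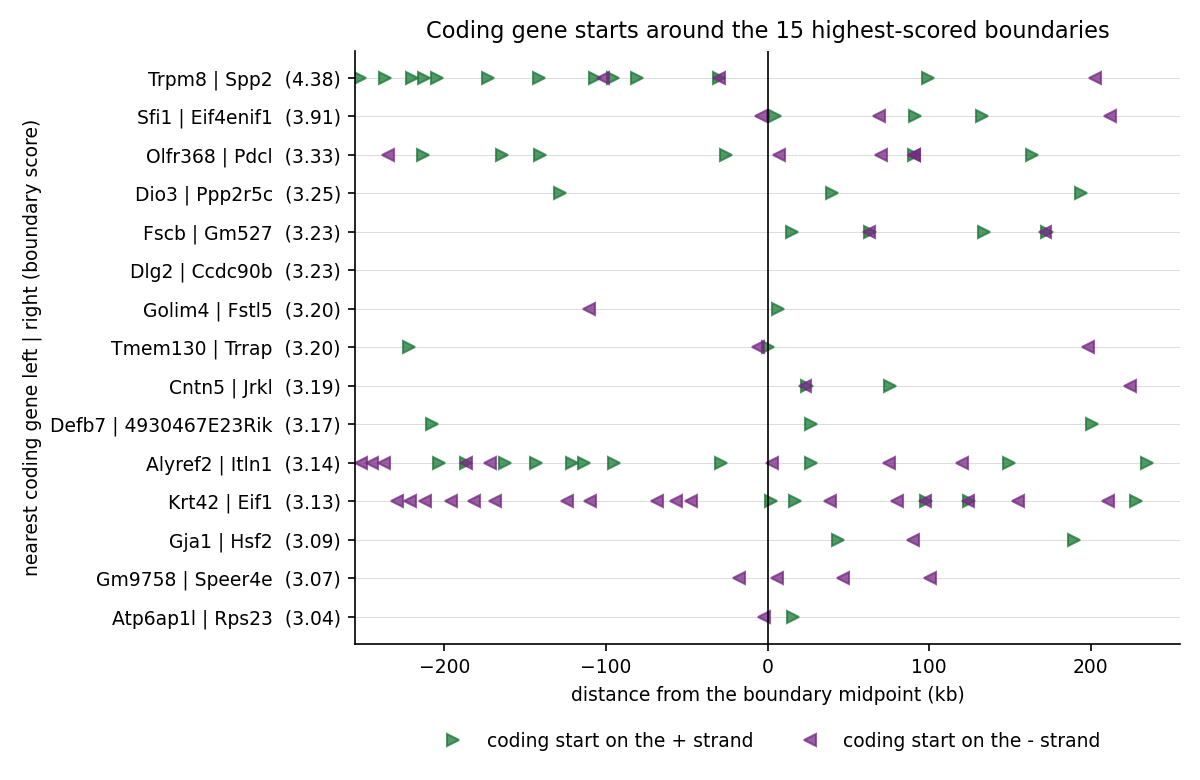
Coding gene starts within 250 kb of the 15 highest-scored boundaries, one boundary per line with the highest score at the top; the horizontal axis is distance from the boundary midpoint in kb, and arrowheads give the direction of transcription. The Trpm8 line has 13 starts to the left and 2 to the right, and the lines of Fscb, Cntn5 and Gja1 have starts to the right only.

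The boundaries scored 1.8 or more lay in gene bodies less often than the rest of the list. No coding gene body was overlapped by 286 of 436 (65.6%, exact 95% interval 60.9 to 70.1), against 3525 of the other 6599 (53.4%) and 1593 of the other 3297 Strong boundaries (48.3%). The difference was 12.2 percentage points from all other boundaries (95% interval 7.45 to 16.7) and 17.3 points from the other Strong ones (12.4 to 21.9). The share was higher than that of the other boundaries on 17 of 19 autosomes. No test was made of this or of any share below: the intervals cover counting error only, and neighbouring boundaries and genes of 1 cluster are not independent.

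Genes of any kind were absent from 240 of the 436 (55.0%), against 44.6% of the other boundaries and 39.3% of the other Strong ones. A coding exon was overlapped by 110 (25.2%), against 32.2% of the other boundaries and 38.9% of the other Strong ones. Introns alone were overlapped by 40 (9.17%), against 14.3% of the other boundaries and 12.8% of the other Strong ones. Position inside a long gene was less frequent: 47 (10.8%) lay in a coding gene of over 100 kb, against 19.9% of the other boundaries and 18.4% of the other Strong ones. In genes of over 500 kb lay 9 (2.06%), the Dlg2 boundary among them, against 5.32% of the other boundaries and 3.52% of the other Strong ones, and the interval of the difference from the other Strong ones held 0 (-2.65 to 0.447 points).

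Coding starts were less often inside these boundaries than inside the others. A start inside the 5 kb was found at 23 (5.28%, 3.37 to 7.81), against 8.82% (8.15 to 9.53) of the other boundaries and 10.9% (9.90 to 12.1) of the other Strong ones, a difference of -3.54 points (-5.42 to -0.943) and of -5.67 points (-7.73 to -2.96). The share was lower than that of the other boundaries on 15 of 19 autosomes. A start within 10 kb but outside the interval was found at 115 (26.4%), against 19.5% of the other boundaries and 23.8% of the other Strong ones. With both counted, 138 (31.7%, 27.3 to 36.2) had a start within 10 kb, against 28.3% of the other boundaries and 34.8% of the other Strong ones, and the interval of either difference held 0. Within 25 kb the share was 59.2%, against 44.7% of the other boundaries and 55.4% of the other Strong ones. From the other Strong ones, the interval of this difference held 0 (-1.15 to 8.65 points). So did the one for starts within 10 kb but outside the interval (-1.62 to 7.12 points).

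The profile by distance counts the same starts again, so it adds no separate support. In the central 5 kb there were 5.96 coding starts per 100 boundaries scored 1.8 or more, against 10.1 per 100 other boundaries and 12.8 per 100 other Strong ones. In the next 5 kb to the left there were 9.63, against 7.56 for the other boundaries and 9.37 for the other Strong ones, and in the next 5 kb to the right 8.03, against 7.49 for the other boundaries and 8.83 for the other Strong ones. At 10 kb to the right there were 5.73, as low as at the centre. The nearest coding start was at a median of 19.1 kb (16.8 to 21.5), against 32.3 kb for the other boundaries and 20.3 kb for the other Strong ones. It was nearer than for the other boundaries on 19 of 19 autosomes, a count that was not made against the other Strong ones. The interval of the median for the other Strong ones (18.8 to 21.7 kb) overlapped that of the boundaries scored 1.8 or more.

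**Figure D2:**
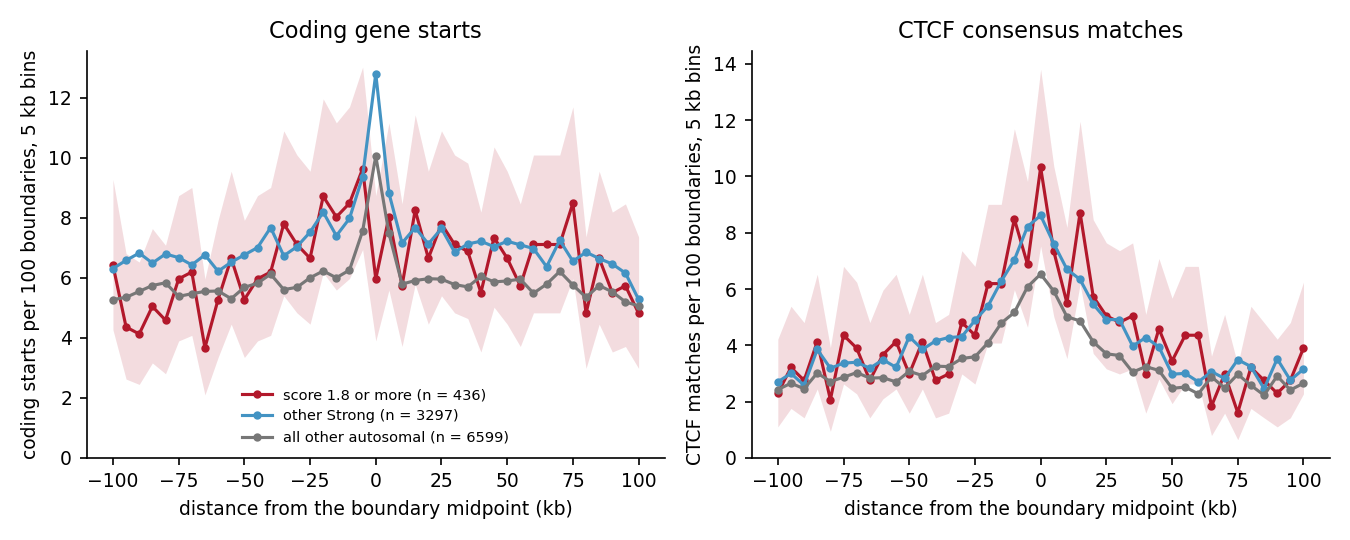
Coding gene starts (left) and CTCF consensus matches (right) per 100 boundaries in 5 kb bins of distance from the boundary midpoint in kb, for boundaries scored 1.8 or more (red, with the exact 95% Poisson band), other Strong boundaries (blue) and all other autosomal boundaries (grey). At the midpoint the red line for coding starts is at 5.96, below the blue line at 12.8 and the grey line at 10.1, while the red and blue lines for CTCF matches lie close together.

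The 26 coding genes that start inside one of these boundaries include pairs that start back to back. At chr14:24485001-24490000 (2.78) Rps24, which encodes a ribosomal protein, and Polr3a, which encodes the largest subunit of RNA polymerase III, start in opposite directions inside the 5 kb, and the next start to the right, that of Zmiz1, lay 969 kb away. At chr13:99340001-99345000 (1.91) Mrps27, of the mitochondrial ribosome, and Ptcd2 start in opposite directions inside it. Lacc1 and Ccdc122 do so at chr14:77035001-77040000 (2.11). Polr3a, Zmiz1, Ptcd2, Lacc1 and Ccdc122 were chosen after their values were seen.

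The median difference in coding starts between the 250 kb on either side was 2, against 1 over the other boundaries and 2 over the other Strong ones, so that median equalled the one of the other Strong boundaries. A further measure was chosen after the data were seen. In the 250 kb on each side, 140 of 436 (32.1%, 27.7 to 36.7) had no coding start on 1 side and 2 or more on the other, against 843 of 6599 other boundaries (12.8%, 11.98 to 13.6) and 503 of 3297 other Strong ones (15.3%, 14.0 to 16.5). The difference was 19.3 points from the other boundaries (15.045 to 23.9) and 16.9 points from the other Strong ones (12.5 to 21.5). It was higher than in the other boundaries on 18 of 19 autosomes. With 500 kb on each side the difference from the other boundaries was 8.45 points. No start on 1 side and exactly 1 on the other was less frequent, at 29 (6.65%), against 12.7% of the other boundaries and 9.16% of the other Strong ones. Gene number as such was alike: the median sum of both sides was 4 starts, against 4 over the other boundaries and 5 over the other Strong ones.

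A coding start within 25 kb on 1 side with none within 250 kb on the other was found at 73 (16.7%, 13.4 to 20.6), against 6.08% of the other boundaries and 6.79% of the other Strong ones. Both sides without a coding start occurred at 15 (3.44%), against 15.7% of the other boundaries and 4.61% of the other Strong ones. The farther of the nearest starts on either side lay at a median of 181 kb, against 165 kb for the other boundaries and 115 kb for the other Strong ones. A difference of 5 or more starts between sides was found at 92 (21.1%), against 12.5% of the other boundaries and 17.2% of the other Strong ones.

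**Figure D3:**
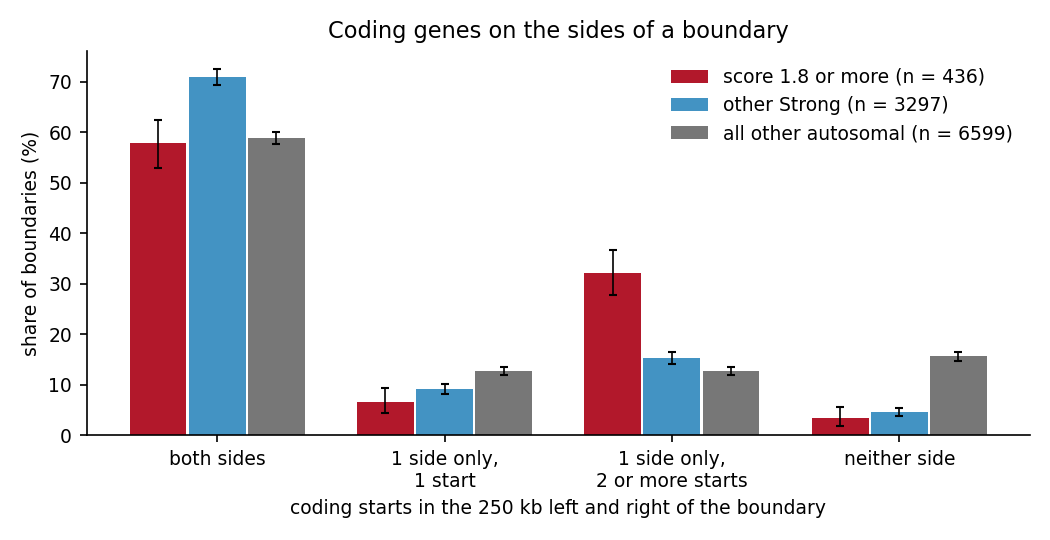
Share of boundaries in percent by where coding starts lie in the 250 kb left and right, for boundaries scored 1.8 or more (red), other Strong boundaries (blue) and all other autosomal boundaries (grey), with exact 95% intervals. Starts on 1 side only, 2 or more in number, occur at 32.1% of boundaries scored 1.8 or more, against 15.3% of other Strong boundaries and 12.8% of all other autosomal boundaries.

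Some boundaries with the largest contrasts, chosen after their values were seen, show what lay on each side. At chr19:8695001-8700000 (1.804) there were 3 coding starts to the left, where the muscarinic receptor gene Chrm1 starts, and 28 to the right, where the amino acid transporter gene Slc3a2 starts. At chr10:126890001-126895000 (2.06) there were 0 to the left, with Lrig3 at 924 kb, and 12 to the right, with Atp23 at 6.36 kb. At chr10:79525001-79530000 (2.202) a pheromone receptor gene, Vmn2r83, lay 56.3 kb to the left of the boundary and the lipid phosphatase gene Plpp2 lay 3.80 kb to the right, with 2 starts to the left and 16 to the right. Base composition differed there too, with 39.5% GC to the left and 52.4% to the right.

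Across all 436 the GC content of the 250 kb on the 2 sides differed by a median of 1.75 percentage points (1.61 to 1.97), against 1.16 points over the other boundaries and 1.41 points over the other Strong ones. A difference of 3 points or more was found at 113 (25.9%, 21.9 to 30.3), against 13.6% of the other boundaries and 17.3% of the other Strong ones. The interval itself had a median of 43.4% GC, against 42.8% over the other boundaries and 44.2% over the other Strong ones. Annotated repeats filled a median of 28.4% of it, against 27.3% at the other boundaries and 26.7% at the other Strong ones. GC content and gene content are known to go together along chromosomes, so these are not separate observations.

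Coding starts near these boundaries tended to point away from them. Of 340 starts within 25 kb outside the interval, 213 (62.6%, 57.3 to 67.8) were transcribed away from the boundary, against 2315 of 4168 (55.5%, 54.0 to 57.1) at the other boundaries and 1456 of 2601 (56.0%, 54.0 to 57.9) at the other Strong ones. The share was 60.2% for starts to the left and 65.4% for starts to the right. Within 100 kb it was 55.1%, against 51.9% at the other boundaries and 52.8% at the other Strong ones. The nearest starts left and right were convergent at 96 boundaries (22.0%), against 26.8% of the other boundaries and 27.4% of the other Strong ones, and divergent at 109 (25.0%), against 22.1% of the other boundaries and 21.9% of the other Strong ones.

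CTCF consensus matches were as frequent as at the other Strong boundaries. A match within 10 kb was found at 135 (30.96%, 26.7 to 35.5), against 23.5% (22.5 to 24.5) of the other boundaries and 30.7% (29.2 to 32.3) of the other Strong ones. The difference was 7.46 points from all other boundaries (3.17 to 12.1) and 0.238 points from the other Strong ones (-4.22 to 4.99). Inside the 5 kb a match was found at 41 (9.40%), against 6.30% of the other boundaries, 8.34% of the other Strong ones and 2.41% of all 492539 autosomal windows of 5 kb. In annotated repeats lay 11.3% of 168 matches within 10 kb, against 11.6% at the other boundaries and 14.2% of 12245 matches on the autosomes.

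Orientation was described over all matches within 50 kb. Of 480 matches, 330 (68.8%, 64.4 to 72.9) had the consensus reading away from the boundary midpoint, against 3480 of 5465 (63.7%, 62.4 to 65.0) at the other boundaries and 2356 of 3593 (65.6%, 63.99 to 67.1) at the other Strong ones. The share was 69.8% on the left and 67.8% on the right, so both sides contributed. Neither a match nor a coding start within 10 kb was found at 208 boundaries (47.7%), against 55.9% of the other boundaries and 45.0% of the other Strong ones. An exact match to 12 letters leaves out weaker motifs, so a boundary without a match may still hold one.

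The measures followed the score in different ways. The share with coding starts on 1 side only was 10.3% for scores under 0.5, 13.6% from 0.5, 16.2% from 1, 21.0% from 1.4, 32.7% from 1.8, 29.5% from 2.2 and 34.4% from 2.6. A coding start inside was found at 6.69%, 10.1%, 12.8% and 11.3% in the 4 ranges under 1.8 and at 5.32%, 2.68% and 9.84% in the 3 ranges from 1.8. No coding gene body was overlapped at 58.5%, 47.0%, 47.1% and 56.7% under 1.8 and at 63.9%, 73.2% and 59.0% from 1.8. That share was thus about as high under 0.5 as from 2.6, and its rise began under 1.8. A CTCF match within 10 kb was found at 16.3%, 29.8%, 32.0% and 32.5% under 1.8 and at 29.3%, 41.1% and 19.7% from 1.8. The range from 2.6 held 61 boundaries. Its interval was 10.6 to 31.8% for the CTCF share and 45.7 to 71.4% for no coding gene body.

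**Figure D4:**
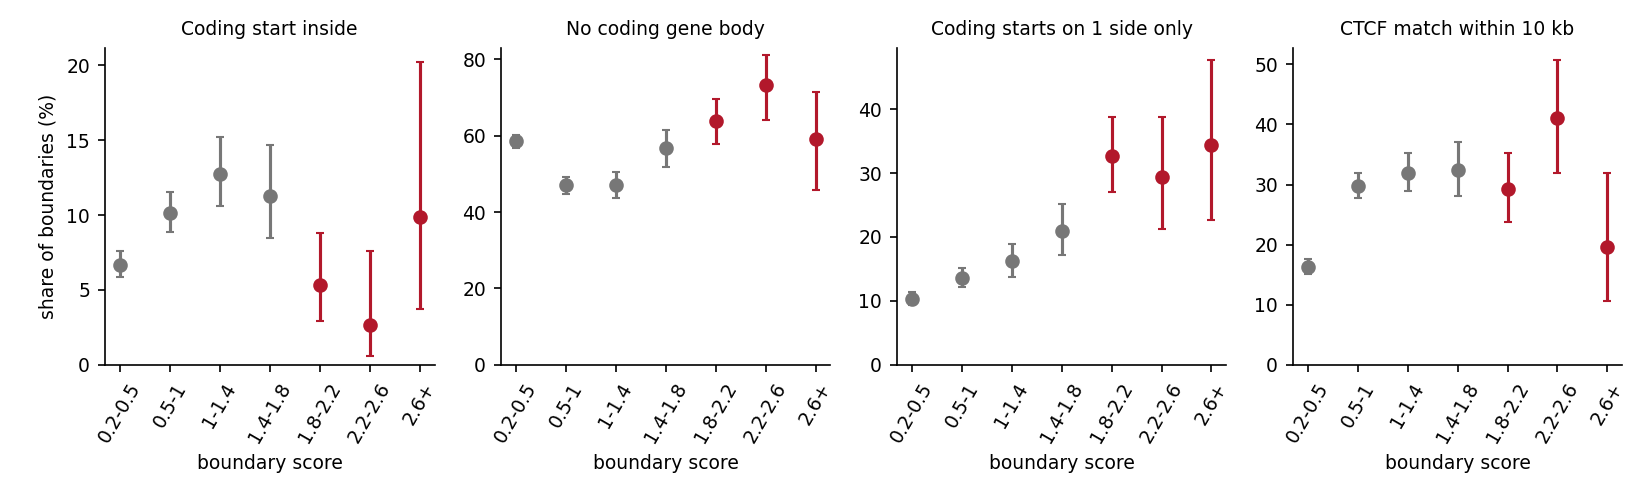
Share of boundaries in percent by range of the boundary score, grey under 1.8 and red from 1.8, with exact 95% intervals, for a coding start inside, no coding gene body, coding starts on 1 side only (2 or more against none in 250 kb) and a CTCF consensus match within 10 kb. The third panel rises from 10.3% in the lowest range to 34.4% in the highest, and the first is at 12.8% for scores of 1 to 1.4 and at 5.32% for 1.8 to 2.2.

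Of 20807 autosomal coding genes, 165 (0.793%) started within 10 kb of a boundary scored 1.8 or more. Among genes for the proteasome, which degrades tagged proteins, 5 of 47 did: Psmd7 at 6.54 kb (2.88), Psmd6 at 4.02 kb (2.41), Psmc1 at 0.154 kb (2.30), Psmd1 at 4.39 kb (2.06) and the assembly chaperone gene Psmg3 at 3.12 kb (2.11). That is 1.15% of the 436 boundaries, against 9 of the other 6599 (0.136%). Of the 9 proteasome genes near other boundaries, 8 were near Strong ones, so this contrast is largely one with Weak boundaries. Those 9 were 19.1% of the 47, against 11.8% for all coding genes. On the other side of the boundary, the transcription factor gene Zfhx3 lay 343 kb from the Psmd7 boundary, and the receptor gene Olfr720 lay 56.8 kb from the Psmd6 boundary.

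Ribosomal protein genes gave 2 of 81, Rps24 inside its boundary and Rps3 at 1.26 kb (1.92), and 2 of the 436 boundaries (0.459%), against 26 of the others (0.394%). Genes of the mitochondrial ribosome gave 3 of 78: Mrps14 at 5.22 kb (2.91), Mrps27 inside its boundary and Mrps30 at 7.75 kb (1.87). These were 0.688% of the 436, against 0.197% of the others. Of the 13 such genes near other boundaries, 9 were near Strong ones. Genes of respiratory complex I gave 0 of 44 and aminoacyl-tRNA synthetase genes 0 of 37, while 8 other boundaries had a start of complex I and 4 one of a synthetase. Counts of this size differ by a few genes, and the lists were not tested.

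Odorant receptor genes lay more often on 1 side than on both, at these boundaries and at the others. An odorant receptor gene was the nearest coding start on exactly 1 side at 9 boundaries (2.06%, 0.948 to 3.88), against 60 of the others (0.909%, 0.695 to 1.17). Both nearest starts were of receptor genes at 2 (0.459%, 0.0556 to 1.65), against 43 of the others (0.652%). Starts of 8 of 1128 receptor genes (0.709%) lay within 10 kb, near the 0.793% of all coding genes. They lay at 6 boundaries (1.38%), against 52 of the others (0.788%). The highest-scored of these were Olfr1423 at 6.32 kb (chr19:12030001-12035000, 2.90), Olfr986 at 0.920 kb (chr9:40175001-40180000, 2.74), and Olfr543 and Olfr544 at chr7:102480001-102485000 (2.67). The Olfr543 start lay inside its boundary and that of Olfr544 lay 3.31 kb to the right. Around that boundary there were 3 coding starts of any kind in the left 250 kb and 18 in the right.

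Of the pheromone receptor genes of the vomeronasal organ, Vmn1r188 (9.44 kb, 1.82) was the 1 of 208 type 1 genes within 10 kb, and 0 of 119 type 2 genes were. The type 1 gene Vmn1r40 was the nearest start to the right of the Txnrd3/Vmn1r40 boundary shown above, at 22.5 kb. Cytochrome P450 genes gave 2 of 100, Cyp2f2 at 4.91 kb (2.41) and Cyp2d26 at 9.29 kb (1.89), and both of these boundaries lay between P450 genes. Histone genes gave 3 of 79, Hist1h1a, Hist1h3a and Hist1h4a, all at chr13:23770001-23775000 (2.12), with 31 coding starts in the left 250 kb and 7 in the right. The zinc finger genes gave 1 of 385, Zfp637 at 6.18 kb (2.21), while keratin genes (110), Hox genes (39) and clustered protocadherin genes (57) gave 0. Of the other boundaries, 1 had a keratin start, 2 had a Hox start and 0 had a protocadherin start within 10 kb. Over all coding genes the share was 0.793%, so counts this small set no list apart.

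Among 35 genes of mature olfactory sensory neurons, 2 started within 10 kb. Emx2, a homeobox factor that promotes odorant receptor expression in mice, started 3.37 kb to the right of chr19:59450001-59455000 (2.57), which overlapped its antisense gene Emx2os. Robo2, an axon guidance receptor of these neurons, started 3.18 kb to the left of chr16:74415001-74420000 (2.15), with no coding start in the 250 kb to the right. That made 0.459% of the 436 boundaries, against 6 of the others (0.0909%). Of the 6 such genes near other boundaries, 4 were near Strong ones. Genes of progenitors and immature neurons gave 0 of 15, non-neuronal epithelium genes 0 of 18 and genes for chromosome architecture 0 of 27. In that order, 0, 1 and 7 of the other boundaries had such a start. Over all coding genes the share was 0.793%, so counts of 0 in lists this short show no contrast between cell types.

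A few distant neighbours are named here after their values were seen. Sox9, which directs cartilage and testis formation, started 1242 kb to the right of chr11:111535001-111540000 (2.04), and the potassium channel gene Kcnj2 started 469 kb to the left, so neither side had a coding start in 250 kb. Fgf10, a growth factor gene, started 270 kb to the right of the Mrps30 boundary. Zmiz1 and Zfhx3 lay 969 kb and 343 kb beyond the Rps24 and Psmd7 boundaries. No list of such genes was counted.

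Spacing comes from the same list and matrix as the score, so it is a description that supports nothing. The nearest other boundary was at a median of 215 kb (quartiles 170 and 295), against 195 kb for the other boundaries and 200 kb for the other Strong ones, and the gap on the longer side had a median of 445 kb, against 350 kb for the other boundaries and 335 kb for the other Strong ones. A gap of over 1 Mb on either side was found at 44 (10.1%), against 5.501% of the other boundaries and 3.88% of the other Strong ones. The stronger of the neighbours had a median score of 0.736, against 0.889 for the other boundaries and 0.870 for the other Strong ones. Neighbours of these boundaries were thus lower-scored than those of the rest.

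Boundaries scored 1.8 or more were seldom next to each other. A neighbour of that kind was found at 14 (3.21%), against 12.7% of the other boundaries. Consecutive ones on a chromosome made 417 pairs with a median spacing of 4465 kb (quartiles 2465 and 7430), from 195 kb to 32.1 Mb. Of these pairs 7 had no other boundary between them, 9 lay under 500 kb apart and 58 over 10 Mb apart. The longest stretch without one ran from chr4:83625001 to chr4:115680001.

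The boundaries were spread over all 19 autosomes in near proportion to the list. The share of a chromosome's boundaries ran from 4.87% (13 of 267, 2.62 to 8.18) on chromosome 16 to 8.20% (26 of 317, 5.43 to 11.8) on chromosome 13, and the 95% interval of each of the 19 held the overall 6.20%. There were 0.185 ± 0.029 per Mb (SD, 19 autosomes), with 0.137 on chromosome 16 and 0.229 on chromosome 18. No autosome stood apart beyond its counting error.

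**Figure D5:**
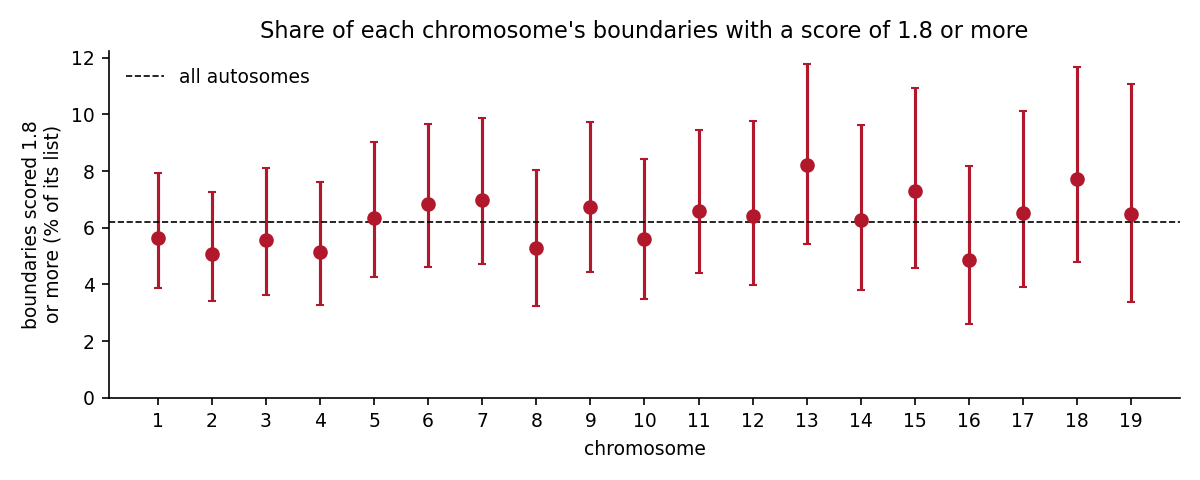
Share of each autosome's boundaries with a score of 1.8 or more, in percent with exact 95% intervals; the dashed line is the share over all autosomes. The points run from 4.87% on chromosome 16 to 8.20% on chromosome 13, and every interval crosses the line at 6.20%.

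Positions that are hard to map were somewhat more frequent among these boundaries. An assembly gap lay within 100 kb of 6 (1.38%, 0.507 to 2.97), against 0.576% of the other boundaries and 0.607% of the other Strong ones. The interval of the difference from the other Strong ones held 0 (-0.0437 to 2.38 points). Under 60% of words occurred once around 7 (1.61%, 0.648 to 3.28), against 0.455% of the others and 0.212% of the other Strong ones. Of the 15 highest-scored, 3 had such a gap and 2 were under 60%. The part of mapping in their scores was not tested. When boundaries near a gap or with under 60% were left out, each of 9 recomputed differences stayed inside its 95% interval. These omissions removed only 6 and 7 of the 436, too few to move a difference out of its interval, so they say nothing about mapping.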

How the data were processed

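Boundaries came from the matrix that joins both replicates, per the series design text, on GRCm38, per the submitters' processing notes. The score of each boundary is the authors' deposited value. The formula behind it, the caller and the aligner are not stated in the labels or headers, and the read depth is unknown. No column of the list was left unused.

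Gene starts (the 5′ end, 1 per gene) and bodies came from GENCODE M21, and sequence, repeat masking and promoters from RefSeq GRCm38.p6. Shares were computed with exact Clopper-Pearson intervals, their differences with Newcombe intervals and medians with order-statistic intervals, all at 95%. Python 3.11.15, numpy 2.4.6, pandas 2.3.3, scipy 1.17.1, pysam 0.24.0 and numba 0.67.0 were used, and the counting steps were tested on simulated data. With 1 pooled list there is no spread between replicates and no test.

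The members and the 18 gene lists were chosen with earlier results of these data known. Genes are named by rule: the nearest coding starts and overlapping coding genes of the 15 highest-scored boundaries, and list genes within 10 kb (the 4 highest-scored for lists of over 60 genes). Promoters are described for genes that start inside the highest-scored boundaries. Other thresholds, windows, comparison sets and omissions were tried.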

Additional observations from a re-analysis of the deposited data

How the results depend on the processing

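Each value here is the boundaries scored 1.8 or more minus the other boundaries, or, for the chromosome spread, the share on chromosome 13 minus that over all autosomes. Over 10 results and 70 alternatives, 59 values stayed within the 95% interval of the main value, 11 moved outside it and none that excluded 0 changed sign. The 1-sided placement of coding starts, the start inside the interval and the omission of repeated sequence were chosen after seeing the data. Outside these 10 results, the direction of coding starts and the GC difference between sides were not among the planned measures. Nor were the share with a start within 25 kb on 1 side and none within 250 kb on the other, and the promoter CpG counts. At thresholds of 2.0 (283 boundaries) and 1.5 (739 boundaries), and without positions near assembly gaps or in repeated sequence, every result stayed within its interval. The 283 lie within the 436 and the 739 include them, so these values had little room to differ. Leaving out gaps or repeated sequence removed only 6 and 7 of the 436 boundaries, too few to move a result out of its interval. Weighting by chromosome had little room too, because the boundaries were spread in near proportion to the list. The count of 59 therefore says little about how firm a result is. Against other Strong boundaries only, the difference was -3.11 percentage points for a coding start within 10 kb, 0.238 points for a CTCF match within 10 kb, -0.86 points for median GC, 17.3 points for no coding gene body, 0 for the median difference in starts between sides and -5.67 points for a start inside. A narrower or wider window gave -3.54 points for a start inside and 14.5 points within 25 kb, 3.10 points for a CTCF match inside, 0 for the median difference between sides in 100 kb, and 8.45 points for starts on 1 side only in 500 kb. The cause of these shifts was not tested. No paired analysis was possible because the deposited list joins both replicates, and no replicate could be left out. Unknown read depth limits all of this: how far a score varies between replicates cannot be told, and the intervals cover counting error only.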

Other observations

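On the X chromosome, which was not among the autosomes described, 4 of 400 boundaries (1.00%, exact 95% interval 0.273 to 2.54) had a score of 1.8 or more, and the highest was 2.35. On the autosomes the share was 6.20%. The sorted cells came from mice of mixed sex, and the part of X copy number in these scores was not tested.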
